A study of Schmidtea mediterranea with 24 samples.

Results

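A set of 114 assembled transcript contigs, of 26563 in the table, was higher in control planarians after 12 double-stranded RNA (dsRNA) feedings than after 10, and had nearly the same mean level in RNAi animals as in the controls fed on the same schedule. The members were chosen by measured values of these same libraries. Levels were CPM, the counts of a contig per 1000000 counts of its library. A member needed a mean of at least 2 CPM over the 24 libraries, which left 13822 contigs. It needed a log2 ratio of at least 0.7 between the mean CPM of the 12-feeding and 10-feeding controls, with 0.5 CPM added to both means, which left 176. At least 4 of the 5 controls fed 12 times had to exceed every control fed 10 times, which left 171. Both RNAi log2 ratios had to be under 0.3 in size, which left the 114. Of the 57 contigs lost at that last step, 39 failed the nkx1-1 bound alone, 9 the myoD bound alone and 9 both.

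All 24 libraries came from Schmidtea mediterranea of the strain CIW4, a freshwater flatworm, and held polyadenylated RNA of whole intact animals, 1 animal per library. In the 10-feeding schedule, given within 7 weeks, 6 controls received unc-22 dsRNA and 6 animals received myoD dsRNA. In the 12-feeding schedule, given within 9 weeks, 5 controls received unc-22 dsRNA and 7 animals received nkx1-1 dsRNA. The gene unc-22 belongs to the nematode Caenorhabditis elegans, so the controls took in dsRNA on the same schedule without a planarian target named in the labels. Every animal in every group was therefore fed liver with dsRNA, and no group went without it. The extraction text mentions 5 wounds per replicate from tail fragments, which differs from the individual intact animals of the title, design and tissue label. The latter were followed here, and if the extraction text holds instead, the spread between replicates is not one between single animals. The schedules differ in number of feedings and in weeks, both go together with any difference between cohorts of animals, and these cannot be told apart.

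Planarians replace their tissues continuously from dividing stem cells called neoblasts, and they grow when fed and shrink when starved. Feeding dsRNA spreads gene silencing through the body, and repeated feeding over weeks is used to follow what happens as old tissue is replaced. MyoD and nkx1-1 encode transcription factors of planarian body-wall muscle, needed for longitudinal and circular fibres. No gene names come with the contig IDs, so the members are given by ID. Their functions, the tissue markers of the animals and the levels of the silenced genes were not analysed here. In RNA of whole animals, more cells of a type and more RNA per cell cannot be told apart.

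Library totals ranged from 9757113 to 18136698 counts. A pair of libraries stood apart from their groups and touch the results below. In replicate 3 of the 12-feeding controls many members lay near the 10-feeding level. In nkx1-1 RNAi replicate 1 a single contig outside the set held 6.79% of all counts, a share that was 0.0393% to 0.391% in the rest of that group. There the median of all 13822 contigs lay 0.15 below the 10-feeding controls on the log2 scale, against −0.05 to 0.09 in the other animals of that group.

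Most members differed between the control groups by less than 2-fold. Their control log2 ratio had a median of 0.86 and ran from 0.70 to 4.93, where the median of all 13822 contigs was −0.04. It lay under 1 for 86 members, between 1 and 3 for 24 and above 3 for 4, with a single member between 2 and 3. Just inside the threshold of 0.7 the value was 0.701 and just outside, among contigs that met the other criteria, 0.698. The largest size of a myoD ratio inside the set was 0.27 and the nearest one outside was 0.34. For nkx1-1 these were 0.296 and 0.306, and for the mean level 2.12 and 1.93 CPM. Together the members held 1.51% ± 0.0887 (SD, n = 6) of the counts of a 10-feeding control and 1.48% ± 0.0840 (SD, n = 6) after myoD RNAi. In the longer schedule the share was 2.80% ± 0.385 (SD, n = 5) for controls. After nkx1-1 RNAi it was 2.78% ± 0.225 (SD, n = 7). The shares ran from 1.40% to 1.66% in the 12 animals of the shorter schedule and from 2.14% to 3.05% in the 12 of the longer one, without overlap. The rule chose the members by the means of these same groups, so this separation is largely fixed by the choice.

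Each animal's level over the whole set was summarised as the median, over the 114 members, of log2(CPM + 0.5) minus that contig's mean in the 10-feeding controls. It ran from −0.06 to 0.06 in the 10-feeding controls and from −0.05 to 0.08 after myoD RNAi. In the 12-feeding controls it was 0.93, 0.95, 0.49, 0.93 and 0.94 in replicates 1 to 5. The third control stood between the schedules while the other 4 were nearly equal. After nkx1-1 RNAi it was 0.66, 0.94, 1.08, 0.88, 1.03, 1.01 and 0.95 in replicates 1 to 7, lowest in the library with the single dominant contig. With totals scaled by TMM factors (edgeR's trimmed mean of M values) that library was at 0.81, the third control at 0.50, and the other 12-feeding animals at 0.86 to 1.04.

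**Figure D1:**
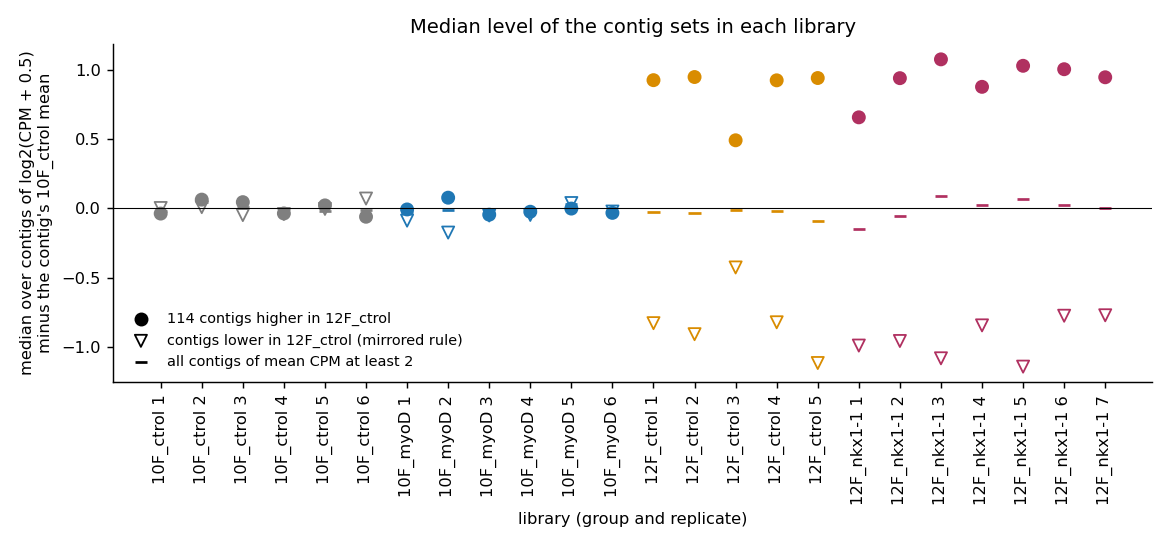
Median level of the 114 contigs (filled circles), of 66 contigs chosen by the mirrored rule (open triangles) and of all 13822 contigs of mean CPM at least 2 (dashes) in each library, as log2(CPM + 0.5) minus the 10-feeding control mean. Control replicate 3 of the 12-feeding schedule lies at 0.49, below 0.93 to 0.95 in the other 4 controls.

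The same schedules were set side by side in the RNAi animals, which received other dsRNA. The rule fixes part of this outcome, because its 3 log2 ratios together force the nkx1-1 over myoD ratio of a member above 0.1. The ratio ran from 0.35 to 4.81 with a median of 0.94, where the median of all 13822 contigs was 0.01. Every nkx1-1 RNAi animal lay above every myoD RNAi animal for 102 of the 114 members, and this was so for 12.7% of the 13822 contigs. In edgeR's quasi-likelihood test on these 13 libraries all 114 members were called higher after nkx1-1 RNAi, at a Benjamini-Hochberg adjusted p under 0.05, beside 24.4% of all contigs tested. Of the 114 members, 110 passed the filter on low counts in the comparison of the controls, and these 110 were called higher, beside 18.2% of all contigs tested. Since the rule used these ratios, nothing is read from these counts.

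**Figure D2:**
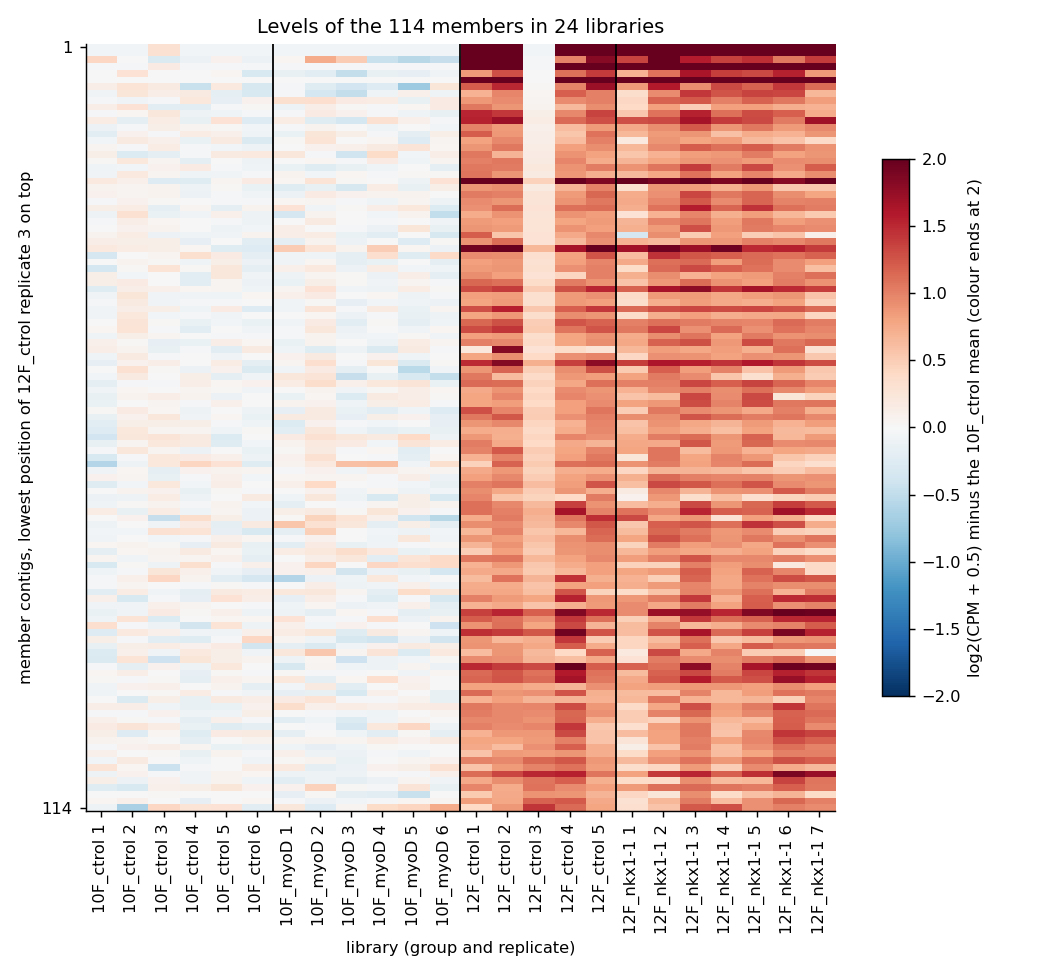
Log2(CPM + 0.5) minus the 10-feeding control mean for the 114 members (lines) in the 24 libraries (columns), with lines sorted by how close 12-feeding control replicate 3 lay to the 10-feeding controls. The 10-feeding columns are near 0 throughout, and the column of control replicate 3 is pale in the upper part and coloured like the other 12-feeding columns in the lower part.

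Within a schedule the members moved little with RNAi, as the rule required. Their log2 ratios ran from −0.23 to 0.27 after myoD RNAi, with a median of 0.00, and from −0.29 to 0.30 after nkx1-1 RNAi, with a median of 0.03. By edgeR 0 of the 110 members tested were called after myoD RNAi, 8 had an unadjusted p under 0.05, DESeq2 called 1, and 7.53% of all contigs tested were called. By edgeR 0 of 114 were called after nkx1-1 RNAi, 5 had an unadjusted p under 0.05, DESeq2 called 0, and the share of all contigs called was 3.87%. With both libraries that stood apart left out, edgeR called 1 member lower after nkx1-1 RNAi and 22 had an unadjusted p under 0.05. That fit called 748 of 16727 contigs. The authors' deposited tables gave 0 members an adjusted p under 0.05 in either comparison, where they list 3.72% of contigs for myoD and 1.65% for nkx1-1. An unadjusted p under 0.05 was given to 3 members for myoD and 5 for nkx1-1 in the authors' deposited tables. For the difference of both RNAi effects, edgeR called 0 of 114 members and 0.425% of all contigs tested, 4 members had an unadjusted p under 0.05, and DESeq2 and limma voom called 0. The rule bounds that difference at 0.6, so these counts are no evidence of insensitivity beyond the rule. The member counts at an unadjusted p under 0.05 have no share of all contigs at that threshold beside them. Nothing is read from them.

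The 4 members with control log2 ratios above 3 were at or near 0 counts in every animal of the shorter schedule. The contig dd_Smed_v4_11485_0_1, with the largest ratio of the set (4.93), was at 15.3, 37.4, 0, 7.20 and 17.2 CPM in 12-feeding control replicates 1 to 5. After nkx1-1 RNAi it was at 13.8, 10.97, 18.2, 8.88, 12.2, 12.0 and 18.9 CPM in replicates 1 to 7. It had no count in any myoD RNAi animal or in 5 of the 6 controls fed 10 times, and 2 counts (0.142 CPM) in the remaining one, replicate 3. Thus 11 of the 12 animals of the longer schedule carried it at 107 to 630 counts, and the 12-feeding control replicate 3, with 0 of its 15125397 counts, resembled the animals of the shorter schedule. The pooled counts of the 12-feeding controls gave a level 692 times that of the 10-feeding controls, with a 95% exact interval of 191 to 5720 that covers counting error only. After nkx1-1 RNAi the pooled level was at least 416-fold higher than after myoD RNAi, against a floor of 3 counts over the myoD group.

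The contig with the next largest ratio (3.85), dd_Smed_v4_15271_0_1, had no count in any of the 12 animals of the shorter schedule. It was at 6.55, 15.6, 0, 3.43 and 8.04 CPM in 12-feeding control replicates 1 to 5. It was at 5.53, 4.71, 8.79, 4.14, 6.31, 5.69 and 10.4 CPM in nkx1-1 RNAi replicates 1 to 7. Again the third 12-feeding control alone among its schedule had no count. The level was at least 201-fold higher in the 12-feeding than in the 10-feeding controls, and at least 201-fold higher after nkx1-1 than after myoD RNAi, against a floor of 3 counts over the lower group.

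Both other contigs of this kind, dd_Smed_v4_13087_0_1 and dd_Smed_v4_15000_0_1, were singled out after their values were seen. The first was at 7.72, 13.8, 0, 2.46 and 7.76 CPM in the 12-feeding controls and at 3.99 to 8.52 CPM after nkx1-1 RNAi. The second was at 6.24, 10.9, 0, 1.71 and 6.56 CPM in the 12-feeding controls and at 4.47 to 7.52 CPM after nkx1-1 RNAi. In the 10-feeding schedule they had 2 counts and 1 count, all in control replicate 3, the animal that also held the 2 counts of dd_Smed_v4_11485_0_1. The 4 contigs shared the animals at both ends of their range: each was highest in control replicate 2 and, among the controls that carried it, lowest in replicate 4. After nkx1-1 RNAi each was highest in replicate 7. The ratio of dd_Smed_v4_11485_0_1 to dd_Smed_v4_15271_0_1, which also depends on contig length, ran from 1.82 to 2.49 over the 11 animals while the level of the former varied from 7.20 to 37.4 CPM. Its ratio to dd_Smed_v4_13087_0_1 ran from 1.70 to 3.0 and that to dd_Smed_v4_15000_0_1 from 1.81 to 4.2.

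**Figure D3:**
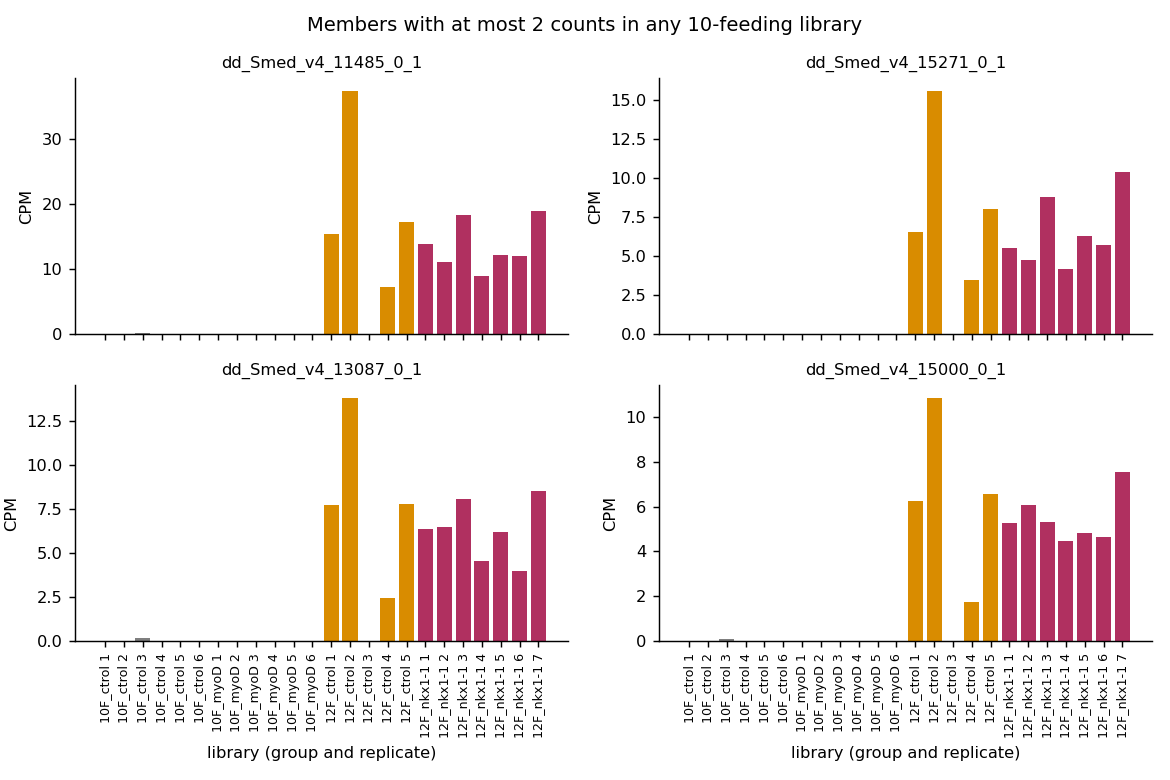
CPM of the 4 members with control log2 ratios above 3 in each of the 24 libraries (bars; 10-feeding groups left, 12-feeding controls in orange, nkx1-1 RNAi in red). All 4 are at 0 in 12-feeding control replicate 3 and at 0 to 0.142 CPM in the 10-feeding libraries.

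The same pattern was looked for in all 26563 contigs, as at least 1 CPM in these 11 animals and at most 3 counts in each of the other 13. It was found for 13 contigs, the 4 members and 9 others. Of those 9, 5 failed the nkx1-1 bound of the rule, 3 had a mean under 2 CPM and 1 failed on both. The reverse pattern, at least 1 CPM in the 13 animals and at most 3 counts in the 11, was found for 0 contigs. No contig had at least 1 CPM in all 12 animals of the longer schedule and at most 3 counts in every animal of the shorter one. The pattern was defined after the values of the members were seen, so the counts are a description. In these contigs the 12-feeding control replicate 3 thus went with the shorter schedule, and the cause was not tested.

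The 12-feeding control replicate 3 did not go with the other schedule in all members. A position was computed for each member and animal of the longer schedule, on the scale of log2(CPM + 0.5). It is 0 at the mean of the 10-feeding controls and 1 at the mean of the other animals of the same group. In control replicate 3 its median was 0.48 and its range −0.02 to 1.79. It lay under 0.25 for 22 members, from 0.25 to 0.5 for 38, from 0.5 to 0.75 for 23 and at 0.75 or more for 31. In the other 4 controls the median position was 1.08 to 1.19, and 103 to 112 members lay at 0.75 or more. For each of these 4 the mean set to 1 includes replicate 3, which raises their positions wherever that animal was low. Control replicate 3 was the lowest of its group for 83 of the 114 members and the highest for 3, and it exceeded every 10-feeding control for 95. The rule used the order of the control columns, so the 95 is largely fixed by the choice. No share over all contigs stands beside these counts, and they are a description only. Of the 20 members that met the rule with 4 of 5 columns, 19 had this animal as the exception.

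**Figure D4:**
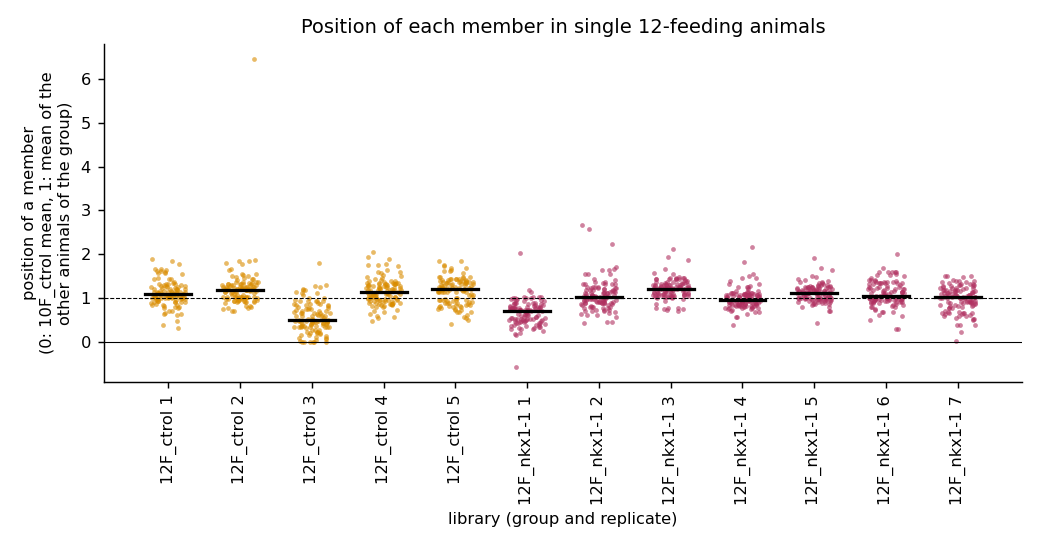
Position of each of the 114 members (points) and their median (bar) in each 12-feeding animal, where 0 is the 10-feeding control mean and 1 the mean of the other animals of the group. The median is 0.48 in control replicate 3, 0.70 in nkx1-1 RNAi replicate 1 and 0.95 to 1.21 in the other animals. The highest point, at 6.45, is a single member in control replicate 2.

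Members at both ends of that range show the difference. The contig dd_Smed_v4_1033_0_1, the largest ratio among members with a position under 0.25 other than the 4 above, was chosen after its values were seen. It was at 69.9 to 95.4 CPM in the 10-feeding controls and 77.8 to 102 CPM after myoD RNAi. In the 12-feeding controls it was at 390, 374, 116, 525 and 306 CPM, and after nkx1-1 RNAi at 297 to 477 CPM. Replicate 3 lay above every 10-feeding animal, but far below the other 4 controls. The means were 84.2 ± 11.4 CPM (SD, n = 6) and 342 ± 149 CPM (SD, n = 5), a log2 ratio of 2.02.

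The contig dd_Smed_v4_12329_0_1, likewise chosen for a position of 1 or more, had 21.0 to 24.1 CPM in the 10-feeding controls and 20.9 to 24.4 CPM after myoD RNAi. In the 12-feeding controls it was at 49.7, 57.6, 65.0, 66.9 and 48.1 CPM, so that replicate 3 was next to the highest. After nkx1-1 RNAi it ran from 39.9 CPM in replicate 1 to 84.2 CPM in replicate 6. Its means were 22.6 ± 1.23 CPM (SD, n = 6) in the 10-feeding and 57.5 ± 8.58 CPM (SD, n = 5) in the 12-feeding controls, a log2 ratio of 1.33. No animal of the longer schedule overlapped any of the shorter one.

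Split at a position of 0.5, 60 members had control replicate 3 nearer the 10-feeding mean and 54 nearer the other controls. Over the 60, the median level was 0.29 in that animal and 0.90 to 1.01 in the other 4 controls. Over the 54 it was 0.73 in that animal and 0.86 to 1.09 in the others. The median control ratio was 0.82 for the 60 and 0.90 for the 54. That ratio includes control replicate 3, so its lower value for the 60 is partly set by the split. This split used the animal it describes, so it was not tested.

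The members with the highest mean CPM had control ratios within the range of most of the set, whose quartiles were 0.77 and 1.00. The contig dd_Smed_v4_267_0_1 was at 1719 to 2578 CPM in the 10-feeding controls and 1445 to 2354 CPM after myoD RNAi. It was at 3842, 4709, 2905, 3966 and 5055 CPM in the 12-feeding controls and at 2994 to 4772 CPM after nkx1-1 RNAi. All 12-feeding animals lay above all 10-feeding animals, with control replicate 3 and nkx1-1 RNAi replicate 1 closest to them. Its means were 2109 ± 291 CPM (SD, n = 6) and 4095 ± 836 CPM (SD, n = 5) in the controls, a log2 ratio of 0.96. The contig dd_Smed_v4_649_0_1 was at 1388 to 1696 CPM in the 10-feeding controls and 1319 to 1506 CPM after myoD RNAi. It was at 2510, 2663, 1860, 2765 and 2703 CPM in the 12-feeding controls and at 1886 to 2572 CPM after nkx1-1 RNAi, a control log2 ratio of 0.77. The schedules did not overlap for it either.

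The member with the widest range after nkx1-1 RNAi was dd_Smed_v4_6318_0_1, whose highest value in that group was 2.63 times the lowest. It was at 4.37, 9.12, 5.18, 4.41, 4.81, 3.47 and 4.53 CPM in nkx1-1 RNAi replicates 1 to 7, with replicate 2, the library with the fewest counts, far above the rest. In the 12-feeding controls it was at 8.40, 8.38, 1.39, 3.31 and 6.28 CPM, and replicate 3 lay inside the 1.06 to 2.06 CPM of the 10-feeding controls. After myoD RNAi it was at 0.808 to 2.69 CPM. Its control log2 ratio was 1.65.

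The rule used the order of the controls and bounded both RNAi ratios, so much of the separation counted next was fixed beforehand. These counts have no share over all contigs beside them, and nothing is read from them. Over all members, the 12 animals of the longer schedule lay above all 12 of the shorter one for 80 contigs. With 12-feeding control replicate 3 set aside the remaining 11 did so for 100. In each myoD RNAi animal, 76 to 107 of the 114 members lay at or below the highest 10-feeding control. In the nkx1-1 RNAi animals 0 to 5 members did so, with the 5 in replicate 1. That animal had the lowest value of its group for 74 members and a median position of 0.70. The medians of the remaining 6 in that group were 0.95 to 1.21, each with replicate 1 in the mean set to 1.

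The members varied more from animal to animal in the longer schedule. The SD of log2(CPM + 0.5) within a group had a median over members of 0.138 in the 10-feeding controls (n = 6) and 0.141 after myoD RNAi (n = 6). It was 0.268 in the 12-feeding controls (n = 5) and 0.235 after nkx1-1 RNAi (n = 7). For all 13822 contigs these medians were 0.110, 0.108, 0.145 and 0.156 in the same order. Leaving out control replicate 3, the 12-feeding value was 0.170 (n = 4; all contigs 0.114). Leaving out nkx1-1 RNAi replicate 1, the value for that group was 0.193 (n = 6; all contigs 0.140). In the 66 contigs of the mirrored rule, described below, the medians with every animal kept were 0.138, 0.156, 0.289 and 0.208 in the same order. They too were higher in the longer schedule. The rule used the order of the control columns and allowed a 12-feeding control to fall short, so the spread in the controls is partly set by the choice. The groups differ in size and the medians were not tested against each other.

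How far members moved together among nkx1-1 RNAi animals depended on replicate 1 and on the scaling. The mean Pearson correlation over all pairs of members was 0.352 across those 7 animals, where all 13822 contigs gave 0.20. Leaving out replicate 1, it was 0.116 (all contigs 0.0732, n = 6). With TMM scaling it was 0.131 on all 7 animals, where all contigs gave 0.000574. In the 10-feeding controls and after myoD RNAi it was 0.104 and 0.104 across 6 animals each, where all contigs gave 0.0478 and 0.0360. With TMM scaling these became 0.0527 and 0.0858, where all contigs gave 0.0101 and 0.00280. These correlations are descriptions, since contigs of a library share its depth and its total.

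The mirrored rule, with ratios of −0.7 or less and at least 4 of the 5 columns below every 10-feeding control, gave 66 contigs. In them control replicate 3 again lay between the schedules, at a median of −0.43 where the other 4 controls were at −1.12 to −0.82. Its median position was 0.46, against 0.48 in the 114 contigs. For nkx1-1 RNAi replicate 1 the median position was 1.08 in the mirrored set and 0.70 in the 114. In that library the median of all contigs lay 0.15 below the 10-feeding controls on the log2 scale, and a link to these positions was not tested. Among nkx1-1 RNAi animals the mean correlation of the 66 contigs was 0.276, below the 0.352 of the 114. It was above that of the 114 with TMM scaling (0.342 against 0.131) and with replicate 1 left out (0.299 against 0.116). The differences between both sets were not tested.

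No 2 members shared the first number of their ID, so the 114 stand for 114 such numbers. For 2 members the number occurs on another contig of the table. What that number stands for is not given in the sources used here, and contigs of similar sequence can share reads.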

How the data were processed

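The deposited count table gives whole numbers of reads, not normalized, for each contig in 24 libraries of polyadenylated RNA. They also deposited a table per RNAi comparison with size-factor-normalised means (signal), a linear fold change (ratio) and raw and adjusted p-values. The submitters' processing notes name CASAVA, cutadapt 1.8, Bowtie 1.1.1, SAMtools and DESeq, with no role or order. A stranded kit was used, per the labels' protocols, and the strand setting of counting is not given in the sources used here.

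From the counts, CPM used column totals. Tests were edgeR 4.0.16 quasi-likelihood F tests in R 4.3.3 (default filterByExpr, TMM, Benjamini-Hochberg over all contigs tested, calls at an adjusted p under 0.05), on the 2 groups compared, or on all 24 libraries with 4 groups for the difference of RNAi effects. DESeq2 1.42.0 and limma voom (limma 3.58.1) were alternatives. Fits were tested on simulated counts. The filter removed dd_Smed_v4_11485_0_1, dd_Smed_v4_15271_0_1, dd_Smed_v4_13087_0_1 and dd_Smed_v4_15000_0_1 from the fits of both control groups and of myoD RNAi with its controls.

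The members, lists and tests were chosen with earlier results of these data known. With no names at hand, the contigs named were the 2 largest control ratios, the 2 highest mean CPM and the widest range after nkx1-1 RNAi, and 4 more were chosen after their values were seen. Library totals were 9757113 to 18136698, and intervals cover counting error only. Replicates within a group differed beyond sampling noise (chi-square per degree of freedom 4.18 to 103). Whether animals came from separate cultures is not stated, so p-values measure the spread between these samples.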

Additional observations from a re-analysis of the deposited data

Results flagged for a closer look

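Gap tests within groups, which compare the gap beside the highest or lowest animal with the range of its group, picked 6 of the 36 sets examined. About 1 in 20 sets, here 1.8, is picked by chance. The 36 sets include contigs chosen for their values and several that concern the same library, so the 6 cannot be read as an excess. The median level of the members in 12-feeding control replicate 3 was 0.493 on the log2 scale, while the other 4 controls of 12 feedings were at 0.927 to 0.951. The members held 2.14% of the counts of that library and 2.82% to 3.05% of the others. The contig dd_Smed_v4_649_0_1 was at 1860 CPM there and at 2510 to 2765 CPM in the other 12-feeding controls. In 10-feeding control replicate 2 the same contig was at 1696 CPM, against 1388 to 1459 CPM. The median level in myoD RNAi replicate 2 was 0.0779, against −0.0450 to −0.000953 in the other myoD RNAi animals. The contig dd_Smed_v4_6318_0_1 was at 9.12 CPM in nkx1-1 RNAi replicate 2 and at 3.47 to 5.18 CPM in the rest of that group. No member was called for a difference between the RNAi effects by edgeR on 24 libraries.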

How the results depend on the processing

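The rule gave 114 contigs and depended most on its threshold and on 1 library. It gave 194 contigs at a control log2 ratio of 0.6 and 28 at 1. It gave 191 with both libraries that stood apart (12-feeding control replicate 3, nkx1-1 RNAi replicate 1) left out, 108 of them among the 114. Leaving out 1 library at a time gave 100 to 198 contigs, the highest without 12-feeding control replicate 3, with 107 of the 114 kept. TMM scaling gave 156, with 113 of the 114 kept. The other settings of the rule gave 87 to 147.

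Members called higher in the 12-feeding controls numbered 109 to 114 and after nkx1-1 against myoD RNAi 113 to 114 under every alternative run, 1 library left out included. In either direction the same fits called 4575 to 6963 and 7222 to 8087 of all contigs. The rule used or bounded these ratios, so nothing is read from the steadiness of the member counts. Members called after myoD RNAi were 0, and became 1 with DESeq2, 0 to 1 with 1 library left out and 2 with the replicate block. Among all contigs tested, DESeq2 called 1251 of 16350 and the replicate block 1115 of 16352. Members called after nkx1-1 RNAi were 0, and became 3 with all 24 libraries in the fit, which called 1849 of 17159 contigs. They became 1 without both libraries named above, where 748 of 16727 contigs were called. With 1 library left out they were 0 to 1. The 1 came without 12-feeding control replicate 3 or nkx1-1 RNAi replicate 3, where 448 of 16757 and 466 of 16496 contigs were called. For myoD the single call came without 10-feeding control replicates 1, 4 or 6 or myoD RNAi replicates 2 or 3. Those fits called 1063 to 1236 contigs in all. For the difference of RNAi effects every alternative gave 0. The replicate block left 110 and 114 calls between the schedules, in controls and in RNAi animals. It left 0 after nkx1-1 RNAi and 0 for the difference of RNAi effects. Among all contigs tested it called 4731 of 16262, 7524 of 16597, 12 of 16598 and 50 of 17159 in the same order. With so few contigs called in the last 2, nothing is read from their 0 members. Deviations of same-numbered animals correlated at −0.16 to 0.64 between the control groups and −0.70 to 0.72 between the RNAi groups, and 3 of 5 and 3 of 6 animals correlated best with their own number. Within a schedule the values were −0.80 to 0.17 for myoD and −0.26 to 0.16 for nkx1-1, with 0 such animals in each. Each of the 4 comparisons had a pair with a negative correlation. The labels give the numbers no shared origin, so same-numbered animals are not taken as pairs. Whether they shared any handling was not tested.

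The median SD of members in the 12-feeding controls was 0.170 without replicate 3. After nkx1-1 RNAi the mean correlation was 0.131 with TMM scaling and 0.116 without replicate 1, and the level in nkx1-1 RNAi replicate 1 was 0.808 with TMM scaling. For these the cause was not tested. The log2 ratios of the 4 contigs at or near 0 counts in the shorter schedule depend on the constant added. A count of 0 in a library allows up to 3 counts, so low presence there was not detectable at this depth.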
